A study of Mus musculus with 12 samples.

Results

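The genotype by PLX3397 interaction is the change that PLX3397 made in R6/2 striatum minus the change it made in wild-type striatum, taken for each of 15397 genes over all 12 libraries of the series. No gene was selected by its value: all 15397 of the 15397 genes in the table entered. A positive interaction means that a gene's level on PLX3397, relative to vehicle, was higher in R6/2 than in wild type, and a negative one means that it was lower. It says nothing by itself of which genotype changed, so the drug change in each genotype is given beside it.

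RNA came from striatum dissected from frozen brains of mice that the labels give as C57BL/6. The 4 groups of 3 mice each were R6/2 mice on PLX3397, R6/2 mice on vehicle, wild-type mice on PLX3397 and wild-type mice on vehicle. The drug was in the chow at 275 ppm, given between weeks 7 and 11 of age. R6/2 mice carry a transgene for an N-terminal fragment of mutant human huntingtin, driven by the human huntingtin promoter in all tissues, so genotype here includes all effects of that transgene up to the age of dissection.

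PLX3397 blocks Csf1r, a receptor tyrosine kinase whose signal microglia need to survive, and so removes most of these cells, the resident macrophages of the brain. Csf1r has 2 ligands, Csf1 and Il34, and the second is made mainly by neurons. Most striatal neurons are medium spiny neurons, which use GABA and are the cells most affected in Huntington's disease. The interaction asks whether the striatum of a mouse with that disease process changed differently on the drug than a healthy one.

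Levels are log2 CPM (reads scaled to library size, on a log2 scale), and 18902120 to 24293208 reads per library were assigned to genes. Changes are log2 differences ± SE from limma, with Benjamini-Hochberg adjustment over all genes, and n = 3 mice per group throughout. Libraries differed in how gene levels followed transcript GC content. Spearman's rho between a library's deviation from the mean of all libraries and GC, across 14305 genes, was -0.514 to -0.182 in R6/2 PLX3397 libraries and -0.001 to 0.292 in R6/2 vehicle libraries. It was 0.230 to 0.445 in wild-type PLX3397 libraries and -0.364 to 0.041 in wild-type vehicle libraries. Genes of regions around the striatum also differed. The summed level of 20 genes of cortical excitatory neurons was 878, 1545 and 3483 CPM in R6/2 PLX3397 replicates 1, 2 and 3, against 2598 to 5010 CPM in R6/2 vehicle libraries. It was 4097 to 5595 CPM in wild-type PLX3397 libraries and 3581 to 3966 CPM in wild-type vehicle libraries. The choroid plexus gene Ttr stood at 12.10 log2 CPM in R6/2 vehicle replicate 1 and at 9.89 in wild-type PLX3397 replicate 1, against 4.01 to 6.09 in the other 10 libraries. The part of these differences in the results was tested only as far as the counts with the GC and length trend removed, with a cortical covariate and without libraries go.

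**Figure D1:**
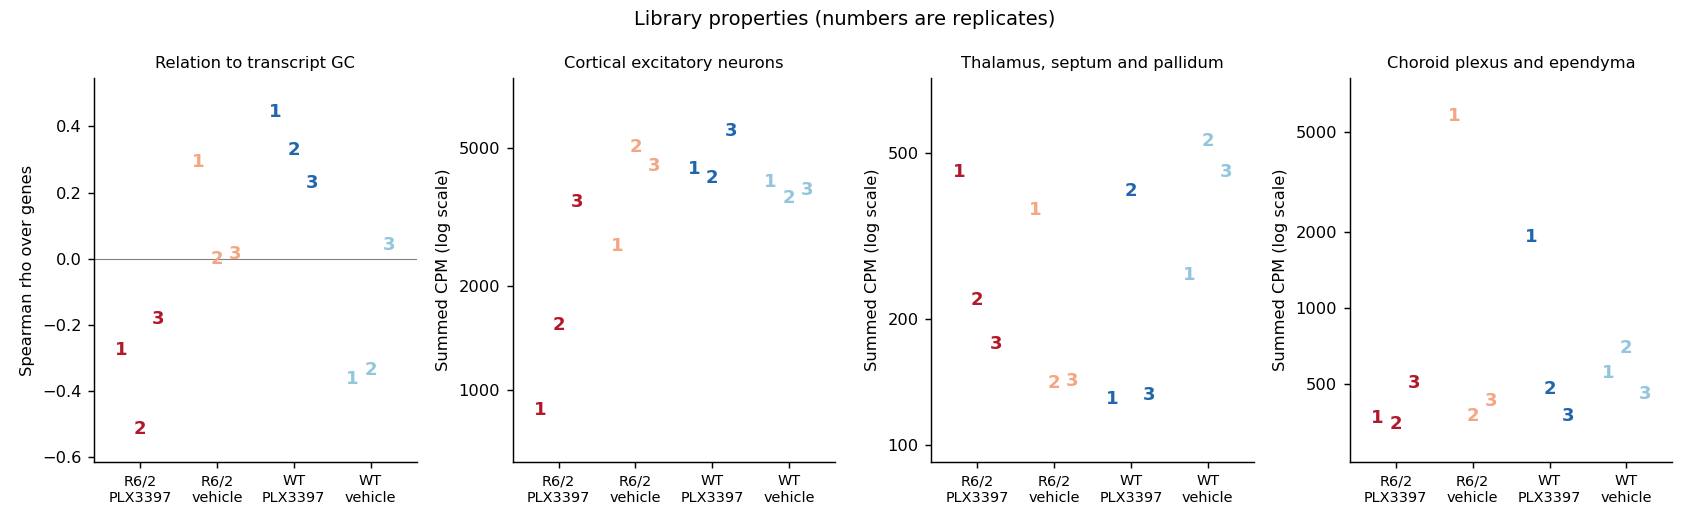
Each library's relation to transcript GC (Spearman's rho over genes) and the summed level of genes of cortex, of thalamus, septum and pallidum, and of choroid plexus and ependyma (CPM, log axis). Digits are replicates, in the order R6/2 PLX3397, R6/2 vehicle, wild-type PLX3397 and wild-type vehicle. R6/2 PLX3397 replicates 1 and 2 are the lowest of the 12 in the cortical panel, and all 3 R6/2 PLX3397 libraries lie below 0 in the GC panel while all 3 wild-type PLX3397 libraries lie above it.

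The interaction passed an adjusted p of 0.05 for 2617 of 15397 genes (17.0%). It was positive for 1430 of them (9.29%) and negative for 1187 (7.71%), and 5561 genes had an unadjusted p under 0.05. The drug change itself was called for 169 genes in R6/2 (1.10%), of which 9 were higher (0.0585%) and 160 lower (1.04%) on PLX3397. In wild type it was called for 2191 genes (14.2%), 913 higher (5.93%) and 1278 lower (8.30%). Read the other way, as the difference between genotypes, 5389 genes (35.0%) differed between R6/2 and wild type on PLX3397 and 325 (2.11%) differed on vehicle. The count on PLX3397 was 3524 with the GC and length trend removed, 3383 without R6/2 PLX3397 replicate 1 and 3461 without replicate 2. With array weights, which weight each library by how well it fits, 7468 genes differed on PLX3397 and 6077 on vehicle. The gap between the 2 counts thus depended on the fit. The count on vehicle was 865 with the trend removed and 100 with a cortical covariate, the mean of the 20 cortical genes in each library. It was 79, 2 and 51 without R6/2 vehicle replicates 1, 2 and 3, 1 without wild-type vehicle replicate 1 or 2, and 561 without wild-type PLX3397 replicate 1 and 162 without replicate 3. These comparisons share libraries with the interaction, so their counts are not independent of it.

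Nearly all called genes had drug changes of opposite sign in the 2 genotypes. This held for 2585 of the 2617 called genes (98.8%), against 72.3% of all genes. The change in wild type was the larger for 2273 of them, and 1707 were called for the drug in wild type, 26 in R6/2 and 892 in neither. Among genes with a positive interaction the median drug change was 0.56 in R6/2 and -1.04 in wild type. Among those with a negative interaction it was -0.30 in R6/2 and 0.55 in wild type. The median interaction of all genes was -0.05. Genes were called on the difference of the 2 drug changes. Selection on that difference favours opposite signs and medians that lie apart, so neither is a separate result.

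**Figure D2:**
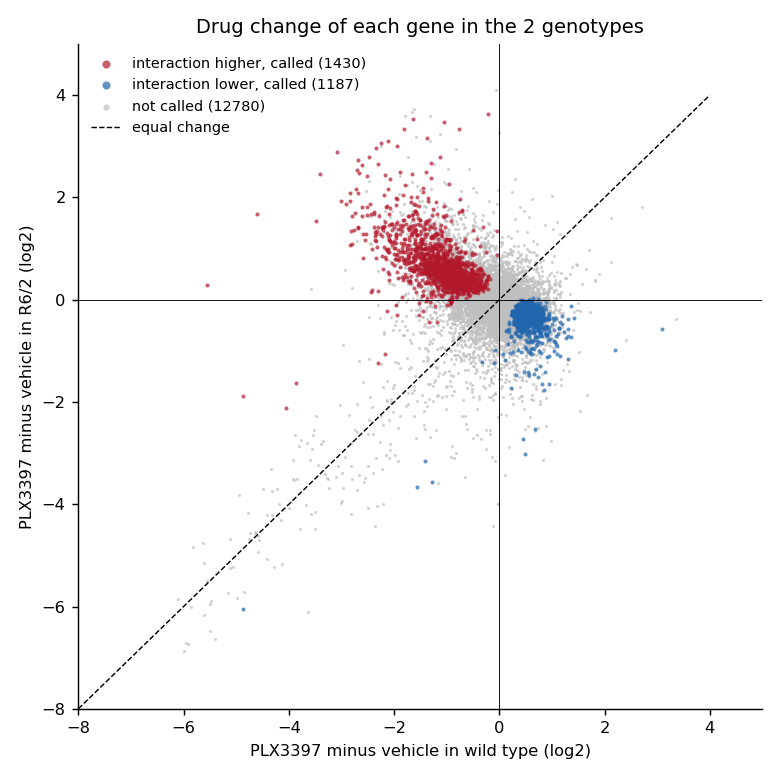
Log2 change on PLX3397 in R6/2 (vertical) against that in wild type (horizontal) for 15397 genes. Genes called for a positive interaction (red, 1430) lie mostly upper left and those with a negative one (blue, 1187) mostly lower right, while the genes far down the dashed line of equal change, which fell in both genotypes, are nearly all grey, not called.

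The 2 sets differed in the composition of their transcripts. Genes with a positive interaction had a median transcript GC of 43.0% and a median length of 5788 bases, and those with a negative one had 55.6% and 2331 bases. The medians of all genes were 49.9% and 3473 bases. Of the decile of genes lowest in GC, 32.5% had a positive call and 0.489% a negative call, and of the decile highest in GC, 0.559% had a positive call and 21.2% a negative call. Across genes, which are not independent replicates, rho with GC was -0.559 for the interaction, -0.472 for the drug in R6/2 and 0.517 for the drug in wild type.

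Removing the GC and length trend from every library left 567 of 14305 genes called (3.96%), 138 positive (0.965%) and 429 negative (3.00%). The drug change was then called for 160 genes in R6/2 (1.12%) and 1150 in wild type (8.04%). The share of positive calls was 24.3% after removal, against 54.6% with the values as deposited. Negative calls still followed GC after removal, now in the other direction. They took 7.06% of the decile lowest in GC and 1.12% of the highest. The 2 fits shared 253 genes with the same sign, 124 positive and 129 negative, which is 9.67% of the calls from the deposited values and 44.6% of those after removal. Of the genes called from the deposited values that had a known GC content, 91.4% kept their sign, and their median absolute interaction was 0.476 after removal and 1.07 before it.

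**Figure D3:**
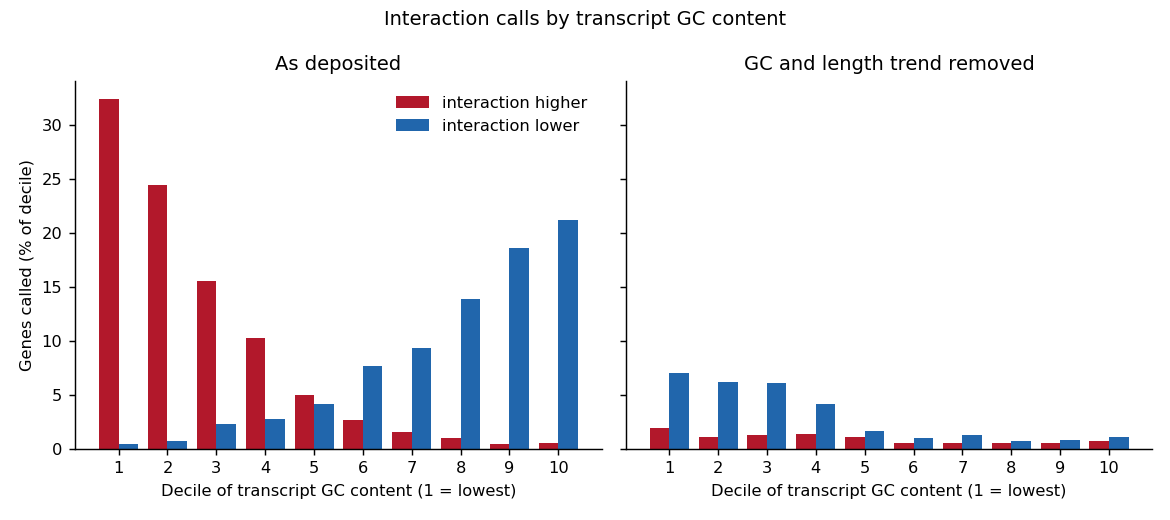
Share of genes called for a positive (red) or negative (blue) interaction in each decile of transcript GC content, from the values as deposited (left) and after removal of the GC and length trend (right). On the left, positive calls take 32.5% of the lowest decile and 0.559% of the highest, and negative calls 0.489% and 21.2%. On the right, no bar passes 7.06%, but negative calls take 7.06% of the lowest decile and 1.12% of the highest. Positive calls there take 1.96% and 0.699%.

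Promoters did not part in the same way. Over the 1112 positive genes with a RefSeq promoter (250 bases before to 50 after a start, GRCm38.p6) the median GC was 62.3%, over 935 negative genes it was 60.7%, and over all 11814 it was 60.7%. The promoters of a gene with a positive and a gene with a negative interaction are shown here because their GC is alike, 64.0% and 63.7%, while their transcripts have 45.1% and 56.6%. Both are those with the smallest p of their sign, among named genes with 1 listed start. Capitals mark CpG (C followed by G, the same on both strands), of which there are 15 in the Minar1 window and 28 in the Ubald1 window, against a median of 20 per promoter over all genes. Minar1 lies at chr9:89622937-89623236 (minus strand) and Ubald1 at chr16:4879802-4880101 (minus strand).
Minar1: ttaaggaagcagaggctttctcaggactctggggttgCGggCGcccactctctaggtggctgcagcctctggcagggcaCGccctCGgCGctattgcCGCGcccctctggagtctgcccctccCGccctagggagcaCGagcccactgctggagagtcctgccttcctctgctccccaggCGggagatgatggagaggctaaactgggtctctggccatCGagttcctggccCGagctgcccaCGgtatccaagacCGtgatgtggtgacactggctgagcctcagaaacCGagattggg
Ubald1: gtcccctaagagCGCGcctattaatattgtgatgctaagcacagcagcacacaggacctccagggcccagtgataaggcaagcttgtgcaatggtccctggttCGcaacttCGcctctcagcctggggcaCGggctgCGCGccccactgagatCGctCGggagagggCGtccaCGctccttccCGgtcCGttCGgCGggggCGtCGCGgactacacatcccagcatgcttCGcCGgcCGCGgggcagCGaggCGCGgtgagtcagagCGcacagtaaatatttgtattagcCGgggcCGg

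Minar1, a membrane protein that binds Notch2, had the smallest interaction p among expressed genes. It stood at 3.77, 3.13 and 2.52 log2 CPM in the 3 R6/2 PLX3397 libraries, and at 1.69, 2.12 and 1.55 in R6/2 vehicle libraries. Wild-type libraries had -0.72, -0.61 and -0.35 on PLX3397 and 2.12, 1.79 and 2.68 on vehicle. The drug groups lay on opposite sides of their vehicle groups with no overlap in either genotype. Its interaction was 4.11 ± 0.48 (adjusted p = 0.0139), made of a change of 1.35 ± 0.34 in R6/2 (adjusted p = 0.128) and of -2.76 ± 0.34 in wild type (adjusted p = 0.00135). With the GC and length trend removed it was 3.15 (adjusted p = 0.0246). Minar1, and below Peg3 and Nat14, were named for their small p. The separation of their groups rests on the same values and adds no further support.

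Peg3, a zinc finger protein expressed from the paternal allele, showed the same arrangement at a high level. R6/2 PLX3397 libraries had 10.06, 9.50 and 8.65 log2 CPM and R6/2 vehicle libraries 7.63, 8.15 and 8.01. Wild-type libraries had 6.05, 6.30 and 6.93 on PLX3397 and 8.30, 8.20 and 8.69 on vehicle. No drug library overlapped the vehicle libraries of its genotype, and the interaction was 3.44 ± 0.47 (adjusted p = 0.0139). Trpc5, a calcium-permeable cation channel of neurons, had an interaction of 4.44 ± 0.63, and N4bp2, which binds the ubiquitin ligase Nedd4, one of 4.10 ± 0.54 (adjusted p = 0.0139 for both). For Sema6d, a membrane-bound guidance protein, the interaction was smaller, 1.35 ± 0.17 (adjusted p = 0.0139), with changes of 0.41 ± 0.12 in R6/2 and -0.95 ± 0.12 in wild type. Removal of the GC and length trend left these 4 called, at 2.49 for Peg3, 4.35 for Trpc5, 2.67 for N4bp2 and 0.84 for Sema6d. It ended the call of Enah, a regulator of actin filaments, whose interaction was 1.66 ± 0.21 (adjusted p = 0.0139) before and 0.26 (adjusted p = 0.502) after removal.

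The genes with the smallest p among negative interactions moved by less. Nat14, a putative acetyltransferase, stood at 5.40, 5.53 and 5.40 log2 CPM in the 3 R6/2 PLX3397 libraries, and at 5.92, 5.77 and 5.83 in R6/2 vehicle libraries. In wild-type striatum the values were 6.87, 7.14 and 6.95 on PLX3397 and 6.12, 6.09 and 6.20 on vehicle. Each drug group lay apart from its vehicle group, below it in R6/2 and above it in wild type. The interaction was -1.25 ± 0.15 (adjusted p = 0.0139), and -0.60 (adjusted p = 0.0562) with the GC and length trend removed. Hras, the small GTPase of growth factor signalling, had an interaction of -1.24 ± 0.19, and Ubald1, whose function is little known, one of -1.30 ± 0.17 (adjusted p = 0.0139 for both). Lin7b, a scaffold protein of synaptic membranes, had one of -1.51 ± 0.23 (adjusted p = 0.0139). These last 3 stayed called after removal, at -0.81 for Hras, -1.12 for Ubald1 and -0.66 for Lin7b.

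**Figure D4:**
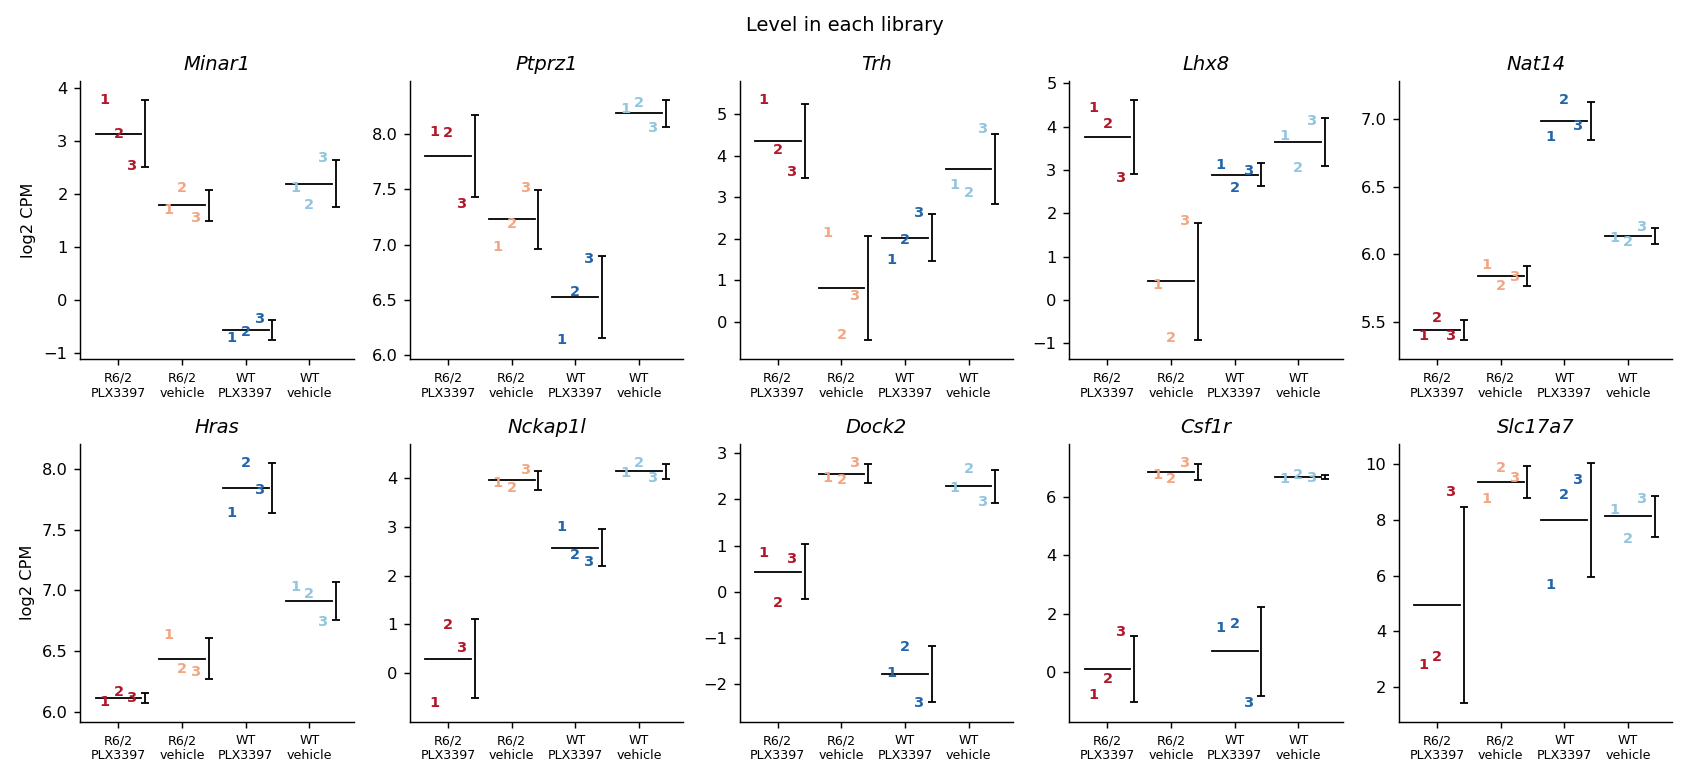
Log2 CPM of 10 genes in each library (digits are replicates), with the group mean (line) and SD (bar, n = 3) in the order R6/2 PLX3397, R6/2 vehicle, wild-type PLX3397, wild-type vehicle. The drug groups of Minar1 and Nat14 lie on opposite sides of their vehicle groups in the 2 genotypes, Nckap1l and Dock2 were lower on PLX3397 in both but by different amounts, and Csf1r was lower in both with no call for the interaction; R6/2 PLX3397 replicates 1 and 2 have Slc17a7 at 2.79 and 3.06.

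Most microglial genes fell in both genotypes. Of 32 homeostatic microglial genes, 27 were called lower on PLX3397 in R6/2 (against 1.04% of all genes) and 28 in wild type (against 8.30%). Their median changes were -5.04 in R6/2 and -4.80 in wild type. The interaction was positive for 2 of the 32 (Tgfbr1 and Hpgds) and negative for 2 (Irf8 and Tmem119), a share of 12.5% against 17.0% of all genes, with a median of -0.66. Its median SE was 0.674 over the 32 and 0.325 over all genes, so the lower share does not show smaller interactions. The summed level of the 32 was 101 to 127 CPM in R6/2 PLX3397 libraries and 724 to 1033 CPM in R6/2 vehicle libraries. It was 110 to 143 CPM in wild-type PLX3397 libraries and 785 to 917 CPM in wild-type vehicle libraries. In bulk tissue, fewer cells of a type and less RNA per cell cannot be told apart.

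Csf1r, the drug's target, stood at -0.79, -0.24 and 1.39 log2 CPM in the 3 R6/2 PLX3397 libraries, and at 6.75, 6.62 and 7.16 in R6/2 vehicle libraries. The wild-type levels were 1.52, 1.65 and -1.04 on PLX3397 and 6.62, 6.74 and 6.63 on vehicle. It was thus low in all 6 drug libraries, and the PLX3397 groups of the 2 genotypes overlapped. What remained was 0.948% of the vehicle level in R6/2 and 1.62% in wild type. The interaction was -0.77 ± 0.96 (adjusted p = 0.584), with a 95% interval of -2.87 to 1.33, so a difference in either direction of over 2-fold is within the error. For Cx3cr1, the fractalkine receptor, the interval was -2.73 to 0.98, and for P2ry12, an ADP receptor of microglia, it was -0.20 to 2.20. The second ligand, Il34, had a negative interaction. It stood at 5.06, 5.49 and 5.85 log2 CPM in the 3 R6/2 PLX3397 libraries, and at 5.80, 6.23 and 5.93 in R6/2 vehicle libraries. Among wild-type mice, those on PLX3397 had 6.42, 6.10 and 6.32 and those on vehicle 5.68, 5.72 and 5.63, with no overlap between these groups. The interaction was -1.12 ± 0.27 (adjusted p = 0.0227), and -0.48 (adjusted p = 0.44) with the GC and length trend removed. The call was lost without R6/2 PLX3397 replicate 2 (adjusted p = 0.0557), wild-type vehicle replicate 1 (0.0594) or wild-type vehicle replicate 2 (0.0552). It was also lost with the cortical covariate (0.0828).

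Among the 32 called genes whose drug changes had the same sign, some are known from microglia or other immune cells and fell more in one genotype. Nckap1l and Dock2 were picked from these after their values were seen. Nckap1l, part of the actin-regulating WAVE complex of immune cells, stood at -0.60, 0.99 and 0.51 log2 CPM in the 3 R6/2 PLX3397 libraries, and at 3.90, 3.79 and 4.16 in R6/2 vehicle libraries. In wild type it stood at 3.00, 2.42 and 2.29 on PLX3397 and at 4.10, 4.31 and 4.0 on vehicle. All 3 R6/2 PLX3397 libraries lay below all 3 wild-type PLX3397 libraries. It retained 7.94% of the vehicle level in R6/2 and 33.7% in wild type, an interaction of -2.09 ± 0.50 (adjusted p = 0.0226), and -2.33 (adjusted p = 0.0305) with the GC and length trend removed. The transcription factor Irf8 and the surface protein Tmem119 also had negative interactions, -2.28 ± 0.68 (adjusted p = 0.0422) and -1.18 ± 0.37 (adjusted p = 0.0489). The calls of both ended with removal of the trend (adjusted p = 0.107 for Irf8 and 0.36 for Tmem119). Irf8 stood at -1.98, -0.39 and -1.52 log2 CPM in the 3 R6/2 PLX3397 libraries, from 4, 16 and 6 reads, so its change in R6/2 rests on few reads. Tmem119 had a mean of 1.77 log2 CPM over all libraries and changed by -6.05 in R6/2 and -4.87 in wild type, so its levels on PLX3397 were low.

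Dock2, which activates Rac in immune cells, went the other way. It stood at 0.84, -0.24 and 0.71 log2 CPM in the 3 R6/2 PLX3397 libraries, and at 2.46, 2.43 and 2.79 in R6/2 vehicle libraries. Wild-type libraries had -1.75, -1.19 and -2.40 on PLX3397 and 2.24, 2.66 and 1.95 on vehicle. The 2 PLX3397 groups did not overlap, with 23% of the vehicle level left in R6/2 and 5.99% in wild type. In wild-type PLX3397 replicates 1, 2 and 3, 3 reads correspond to -2.02, -2.18 and -2.06 log2 CPM. The wild-type share thus rests on few reads. The interaction was 1.94 ± 0.54 (adjusted p = 0.0356), and 1.42 (adjusted p = 0.173) with the trend removed. Tgfbr1, a receptor for TGF-beta, kept 48.1% in R6/2 and 22.2% in wild type, an interaction of 1.12 ± 0.27 (adjusted p = 0.0233) that was -0.09 with the trend removed.

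The calls of these microglial genes were lost with the cortical covariate and depended on single libraries. In the fit with that covariate none of the 32 homeostatic microglial genes was called. Nckap1l (adjusted p = 0.0625) and Dock2 (0.0939) were not called in it either. Nckap1l lost its call without wild-type vehicle replicate 1 (adjusted p = 0.0594) or 2 (0.0526). Tgfbr1 lost it without R6/2 PLX3397 replicates 1 (0.0584) or 2 (0.0578), R6/2 vehicle replicate 1 (0.0531), or wild-type vehicle replicates 1 (0.0674) or 2 (0.065). Tmem119 lost it without any 1 library (adjusted p = 0.0648 to 0.103) other than R6/2 PLX3397 replicate 3 or wild-type PLX3397 replicate 3. Irf8 lost it without any 1 library (0.054 to 0.0937) other than R6/2 PLX3397 replicate 2 or wild-type PLX3397 replicate 2. Dock2 lost it without R6/2 PLX3397 replicate 1 or 3, any R6/2 vehicle library, wild-type PLX3397 replicate 3, or wild-type vehicle replicate 1 or 2 (0.0537 to 0.0903). In these fits the interaction was -2.17 to -2.07 for Nckap1l, 1.00 to 1.12 for Tgfbr1 and -1.28 to -1.02 for Tmem119. For Irf8 it was -2.49 to -1.94, and for Dock2 1.63 to 2.05. Calls over all genes also differed, with 366 with the covariate, 537 without wild-type vehicle replicate 1 and 2815 without R6/2 PLX3397 replicate 3.

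Of 17 oligodendrocyte precursor genes, 8 had a positive interaction (47.1%, against 9.29% of all genes) and none a negative one. Oligodendrocyte precursors are dividing glia that give rise to myelinating cells and themselves express part of the extracellular matrix. The median change was -0.22 in R6/2, where none of the 17 was called (against 1.10% of all genes). It was -1.12 in wild type, where 9 were called lower (against 8.30% of all genes). The median interaction was 0.82, and after removal of the GC and length trend it was 0.78, with 4 of the 17 called (against 0.965% of all genes called positive in that fit). With the cortical covariate it was 0.46, with 2 called. None of 21 genes of myelinating oligodendrocytes was called for the interaction (against 17.0% of all genes). The count was 4, all positive, without wild-type vehicle replicate 3 and also with array weights.

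Ptprz1, a receptor phosphatase whose secreted form is phosphacan, stood at 8.02, 8.01 and 7.37 log2 CPM in the 3 R6/2 PLX3397 libraries, and at 6.98, 7.19 and 7.51 in R6/2 vehicle libraries. In wild-type striatum the values were 6.14, 6.57 and 6.87 on PLX3397 and 8.22, 8.28 and 8.05 on vehicle. The R6/2 groups overlapped and the wild-type groups did not. Its interaction was 2.23 ± 0.32 (adjusted p = 0.0139) and was 1.10 (adjusted p = 0.0415) with the trend removed. Sox6, a transcription factor of immature glia, had an interaction of 2.03 ± 0.31 (adjusted p = 0.0139), with 1.01 (adjusted p = 0.0322) after removal. Lhfpl3 had 2.90 ± 0.62 (adjusted p = 0.0182), with 2.24 (adjusted p = 0.033) after removal. Gpr17 and Pdgfra, a receptor of committed precursors and the growth factor receptor of precursors, were picked after their values were seen. The first fell to 5.0, 4.95 and 4.77 log2 CPM in wild type on PLX3397, against 6.29, 6.26 and 6.15 on vehicle. It was at 5.91, 5.39 and 5.67 in R6/2 on PLX3397, against 6.06, 5.92 and 6.29 on vehicle. Every drug library lay below the vehicle libraries of its genotype, by little in R6/2 (adjusted p = 0.294 for the change), and the interaction of Gpr17 was 0.89 ± 0.21 (adjusted p = 0.022). Pdgfra had an interaction of 1.24 ± 0.31 (adjusted p = 0.0252), which was 0.60 (adjusted p = 0.203) after removal.

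Leaving out 1 library left between 2 and 8 of these 17 genes called. The lowest counts were 4 without R6/2 PLX3397 replicate 1, 3 without R6/2 PLX3397 replicate 2, 2 without wild-type vehicle replicate 1 and 4 without wild-type vehicle replicate 2. Lhfpl3 was lost without R6/2 PLX3397 replicate 2 (adjusted p = 0.05005) or wild-type vehicle replicate 1 (0.0513). Gpr17 was lost without R6/2 PLX3397 replicate 1 (0.0534) or wild-type vehicle replicate 1 (0.062) or 2 (0.0573). Pdgfra was lost without replicate 1 or 2 of R6/2 PLX3397, of R6/2 vehicle or of wild-type vehicle (0.0525 to 0.0655). Ptprz1 and Sox6 kept their calls in all 12 such fits.

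The perineuronal net is a coat of matrix around some neurons, built of proteoglycans of the lectican family, link proteins, tenascin and hyaluronan. Of 41 genes for its parts and for the enzymes that make or cut them, 6 had a positive interaction and 3 a negative one (22%, against 17.0% of all genes), with a median of 0.14. After removal of the GC and length trend, and likewise with the cortical covariate, Ptprz1 alone of the 41 was called. Tnr, the tenascin of the net, stood at 6.04, 6.63 and 6.17 log2 CPM in the 3 R6/2 PLX3397 libraries, and at 4.57, 5.99 and 6.03 in R6/2 vehicle libraries. The wild-type levels were 4.20, 3.28 and 4.50 on PLX3397 and 6.21, 5.99 and 5.17 on vehicle, with no overlap between the groups in either genotype. The interaction was 2.55 ± 0.61 (adjusted p = 0.0232), and 1.44 (adjusted p = 0.0746) after removal. Vcan, the lectican made by precursors, had 2.30 ± 0.56 (adjusted p = 0.0241), and Hapln1, a link protein, 1.50 ± 0.46 (adjusted p = 0.0467). Chpf, which polymerises chondroitin chains, had -0.84 ± 0.20 (adjusted p = 0.0219). Removal of the trend ended these 3 calls (adjusted p = 0.325 for Vcan, 0.783 for Hapln1 and 0.223 for Chpf).

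Acan, the main lectican of nets, was not called. It stood at 2.52, 2.07 and 2.50 log2 CPM in the 3 R6/2 PLX3397 libraries, and at 2.23, 2.65 and 2.35 in R6/2 vehicle libraries. Among wild-type mice, those on PLX3397 had 0.96, 1.34 and 1.59 and those on vehicle 1.72, 2.51 and 2.30. Levels overlapped in R6/2 and did not in wild type, and the interaction of 0.83 ± 0.37 missed the threshold (adjusted p = 0.133), with a 95% interval of 0.01 to 1.65. Col25a1, a membrane collagen of neurons, was with Col15a1 1 of 2 called among 38 collagens, laminins and related genes (5.26%, against 9.29% of all genes called positive), at 1.97 ± 0.38 (adjusted p = 0.0146), and it was 1.16 (adjusted p = 0.12) after removal of the trend. None of the 38 was called with the trend removed or with the cortical covariate. Single libraries moved the calls of perineuronal net genes. The count of called perineuronal net genes, 9 with all libraries, was 3 without R6/2 PLX3397 replicate 1, 1 without R6/2 PLX3397 replicate 2, 1 without wild-type vehicle replicate 1 or 2, and 12 without wild-type PLX3397 replicate 1. Tnr and Chpf were lost without R6/2 PLX3397 replicate 2 or wild-type vehicle replicate 1 or 2 (adjusted p = 0.0596 to 0.0651). Vcan was lost without R6/2 PLX3397 replicate 1 or 2, R6/2 vehicle replicate 1, or wild-type vehicle replicate 1 or 2 (0.0556 to 0.0658). Hapln1 was lost without any 1 library (0.0648 to 0.108) other than wild-type PLX3397 replicate 3 or wild-type vehicle replicate 3.

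Few genes of medium spiny neurons, the main cells of the tissue, were called. Of 37, Isl1 was the only one (2.70%, against 17.0% of all genes), and the median was -0.27. The median SE of the interaction was 0.702 over the 37 and 0.325 over all genes, so their low share of calls does not show smaller interactions. Penk, the enkephalin precursor, stood at 6.90, 8.12 and 7.44 log2 CPM in the 3 R6/2 PLX3397 libraries, and at 6.66, 6.10 and 7.48 in R6/2 vehicle libraries. In wild type it stood at 11.03, 10.53 and 10.99 on PLX3397 and at 10.07, 10.15 and 9.29 on vehicle. R6/2 libraries lay below all wild-type libraries, and the interaction was -0.26 ± 0.54 (adjusted p = 0.75), with a 95% interval of -1.46 to 0.93. The interval was about as wide for Pdyn, the dynorphin precursor (-0.56 to 1.95), and it was wider for the dopamine receptor Drd1 (-2.14 to 1.59) and for Ppp1r1b, which encodes DARPP-32 (-2.80 to 0.57). Isl1, a transcription factor of developing striatal and of cholinergic neurons, stood at 4.36, 4.81 and 3.88 log2 CPM in the 3 R6/2 PLX3397 libraries, and at 2.76, 2.81 and 3.42 in R6/2 vehicle libraries. Wild-type libraries had 4.38, 4.17 and 4.10 on PLX3397 and 4.37, 4.19 and 4.21 on vehicle. Here the drug groups differed in R6/2 and overlapped in wild type, for an interaction of 1.39 ± 0.34 (adjusted p = 0.0241), and 1.28 (adjusted p = 0.0648) with the trend removed.

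Of 18 interneuron genes, 4 had a positive interaction (22.2%, against 9.29% of all genes) and none a negative one, with medians of 1.31 for the interaction, 1.36 for the drug in R6/2 and -0.16 for the drug in wild type. They are Lhx8, Gbx1, Slc5a7 and Zic1, of which the first 3 are known from cholinergic neurons. The 18 genes ranged over -3.08 to 4.53, and 5 were below 0, none of them called: the neuropeptide genes Cck, Pthlh, Vip, Npy and Sst. The summed level of the 18 was 307 to 458 CPM in R6/2 PLX3397 libraries and 340 to 382 CPM in R6/2 vehicle libraries, and 408 to 858 CPM in wild-type PLX3397 libraries and 592 to 719 CPM in wild-type vehicle libraries, so the groups overlapped in both genotypes. Lhx8, a transcription factor these neurons need, stood at 4.43, 4.05 and 2.81 log2 CPM in the 3 R6/2 PLX3397 libraries, and at 0.34, -0.87 and 1.83 in R6/2 vehicle libraries. In wild-type striatum the values were 3.11, 2.59 and 2.98 on PLX3397 and 3.79, 3.04 and 4.13 on vehicle. The 3 R6/2 vehicle libraries were the lowest of the 12. The change was 3.33 ± 0.61 in R6/2 (adjusted p = 0.0216) and -0.76 ± 0.61 in wild type (adjusted p = 0.404), and the interaction was 4.09 ± 0.86 (adjusted p = 0.0174). Gbx1, a homeobox gene, had an interaction of 4.53 ± 0.96 (adjusted p = 0.0175), and Slc5a7, the choline transporter, one of 3.92 ± 0.85 (adjusted p = 0.0184). With the GC and length trend removed, Lhx8 had 4.40 and Gbx1 5.02 (adjusted p = 0.0288 and 0.0311), and Slc5a7 had 2.82 (adjusted p = 0.0552).

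Trh, the precursor of thyrotropin-releasing hormone, was picked after its values were seen and had a like arrangement. It stood at 5.33, 4.14 and 3.60 log2 CPM in the 3 R6/2 PLX3397 libraries, and at 2.15, -0.32 and 0.62 in R6/2 vehicle libraries. The wild-type levels were 1.50, 1.97 and 2.62 on PLX3397 and 3.28, 3.11 and 4.63 on vehicle. Both pairs of groups were apart, in opposite directions, and the interaction was 5.19 ± 0.92 (adjusted p = 0.0139), and 5.80 (adjusted p = 0.0246) with the trend removed. Gad2, a GABA-synthesising enzyme of most striatal neurons, had an interaction of 2.86 ± 0.52 (adjusted p = 0.0139), with 1.68 ± 0.36 in R6/2 and -1.18 ± 0.36 in wild type, and 2.01 (adjusted p = 0.0405) with the trend removed.

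Genes of neighbouring regions are given beside these, since their levels also differed between libraries. Of 15 genes of thalamus, septum and pallidum, 2 had a positive interaction (13.3%, against 9.29% of all genes), Rora at 4.09 ± 0.84 (adjusted p = 0.0163) and Gbx2 at 3.21 ± 0.91 (adjusted p = 0.0371), both transcription factors of thalamic neurons, and 13 of the 15 were above 0, with a median of 1.89. With the trend removed, Rora had 2.33 (adjusted p = 0.0648) and Gbx2 3.84 (adjusted p = 0.0418). The count was 5, 4 positive and 1 negative, without R6/2 PLX3397 replicate 3, and 1 without R6/2 PLX3397 replicate 1 or 2, R6/2 vehicle replicate 2 or 3, wild-type PLX3397 replicate 3, or wild-type vehicle replicate 1 or 2. The summed level of the 15 was 174 to 449 CPM in R6/2 PLX3397 libraries, 140 to 366 CPM in R6/2 vehicle libraries, 129 to 404 CPM in wild-type PLX3397 libraries and 255 to 533 CPM in wild-type vehicle libraries. The median interaction of the 20 cortical genes was -1.47, with Itpka called at -1.88, and 17 of the 20 were below 0. Slc17a7, the vesicular glutamate transporter of cortical neurons, stood at 2.79, 3.06 and 9.0 log2 CPM in the 3 R6/2 PLX3397 libraries, and at 8.73, 9.86 and 9.50 in R6/2 vehicle libraries. Among wild-type mice, those on PLX3397 had 5.67, 8.90 and 9.44 and those on vehicle 8.34, 7.30 and 8.74. Its interaction of -4.29 ± 2.05 was not called (adjusted p = 0.156) and was -0.25 without R6/2 PLX3397 replicates 1 and 2. With the cortical covariate none of the 15 genes of thalamus, septum and pallidum and none of the 18 interneuron genes was called. Lhx8 then had 3.50 (adjusted p = 0.0599), Gbx1 3.90 (0.0601) and Slc5a7 3.29 (0.065). Trh had 4.80 (0.0495) and Gad2 2.73 (0.0495) in that fit. The part of regional tissue in the cholinergic genes was not tested beyond this.

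The neuronal calls were also read without each library. Lhx8 was lost without wild-type vehicle replicate 1 (adjusted p = 0.0507), and so were Gbx1 (0.0518) and Slc5a7 (0.0534). Slc5a7 was lost without wild-type vehicle replicate 2 as well (0.0515). Isl1 was lost without R6/2 PLX3397 replicate 1 or 2, R6/2 vehicle replicate 1, or wild-type vehicle replicate 1 or 2 (0.055 to 0.0668). It was also lost with the cortical covariate (0.0863). Gbx2 was lost without any 1 library (0.0543 to 0.0908) other than R6/2 PLX3397 replicate 3 or wild-type PLX3397 replicate 1. The count of called interneuron genes fell to 1 without wild-type vehicle replicate 1, and was 8, 5 positive and 3 negative, without wild-type PLX3397 replicate 1.

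Of 34 glutamate receptors and scaffolds, 5 had a positive and 2 a negative interaction (20.6%, against 17.0% of all genes), with a median of 0.35. With the GC and length trend removed the median was -0.01, with Dlg4, a scaffold of the postsynaptic density, alone called, at -1.24 (adjusted p = 0.0246), and 2 were called with the cortical covariate. The count was 3 without R6/2 PLX3397 replicate 1, R6/2 vehicle replicate 1 or R6/2 vehicle replicate 2, 1 without R6/2 PLX3397 replicate 2 or wild-type vehicle replicate 1, and 0 without wild-type vehicle replicate 2. The AMPA receptor subunit Gria4 had 2.05 ± 0.45 (adjusted p = 0.0185) and the kainate receptor subunit Grik5 -1.01 ± 0.21 (adjusted p = 0.0173). With the trend removed both calls ended (adjusted p = 0.0836 and 0.0934). Gria4 was lost without R6/2 PLX3397 replicate 2 (0.0509) or wild-type vehicle replicate 1 (0.0535) or 2 (0.0504), and Grik5 without wild-type vehicle replicate 2 (0.0504). Of 30 genes of synaptic vesicles and transmitter release, 6 had a positive interaction (20%, against 9.29% of all genes) and none a negative one, with a median of 0.10 and 16 of the 30 above 0. They are the GABA-synthesising enzymes Gad1 and Gad2, the release factor Unc13c, and Syt4, Vamp1 and Syn3 of the vesicle. Unc13c had 3.22 ± 0.59 (adjusted p = 0.0141). Gad2 alone was called with the trend removed, and 2 were called with the cortical covariate. The count was 3 without R6/2 PLX3397 replicate 1 or 2 or wild-type vehicle replicate 1 or 2, and 10, 7 positive and 3 negative, without wild-type PLX3397 replicate 1. Of 26 immediate early genes, which neurons switch on with activity, 3 had a negative interaction, Nptx2, Dusp6 and Jund (11.5%, against 7.71% of all genes), and 25 were below 0, with a median of -0.81. None of these was called with the trend removed or with the cortical covariate. Nor was any called without R6/2 PLX3397 replicate 1 or 2, or wild-type vehicle replicate 1 or 2. The count was 1 without R6/2 vehicle replicate 2 or 3, 5 without R6/2 PLX3397 replicate 3 and 6 without wild-type PLX3397 replicate 3. Nptx2, a synaptic pentraxin induced by activity, stood at 2.38, 2.43 and 3.47 log2 CPM in the 3 R6/2 PLX3397 libraries, and at 3.85, 4.13 and 4.69 in R6/2 vehicle libraries. In wild type it stood at 4.62, 5.05 and 6.04 on PLX3397 and at 4.40, 4.47 and 4.84 on vehicle. Only the R6/2 groups did not overlap, and the interaction was -2.13 ± 0.55 (adjusted p = 0.0283), and -1.57 (adjusted p = 0.133) with the trend removed. It was lost without R6/2 PLX3397 replicate 1 or 2, R6/2 vehicle replicate 3, or wild-type vehicle replicate 1 or 2 (0.0562 to 0.0727). Egr2, a zinc finger transcription factor of the same list, had -1.69 ± 0.86 and was not called (adjusted p = 0.181).

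Nuclear-encoded respiratory chain genes, which make most subunits of mitochondrial complexes, leaned one way. All 47 had an interaction below 0, and 13 were called (27.7%, against 7.71% of all genes called negative), with a median of -0.62. Their median drug change was -0.13 in R6/2, where none was called (against 1.10% of all genes). It was 0.49 in wild type, where 14 were called higher (against 5.93% of all genes). These genes have short transcripts, with a median of 1410 bases against 3473 for all genes, and after removal of the GC and length trend the median was -0.25, with 7 of the 47 called (against 3.00% of all genes called negative in that fit). With the cortical covariate it was -0.57, with none of the 47 called. Cox6a1, a cytochrome oxidase subunit, stood at 7.48, 7.44 and 7.73 log2 CPM in the 3 R6/2 PLX3397 libraries, and at 8.21, 8.10 and 7.86 in R6/2 vehicle libraries. Wild-type libraries had 8.17, 8.90 and 8.46 on PLX3397 and 7.89, 7.83 and 7.85 on vehicle. Neither pair of groups overlapped, and the interaction was -1.16 ± 0.25 (adjusted p = 0.0175), and -0.30 (adjusted p = 0.32) with the trend removed. The complex I subunit Ndufa1 had -0.93 ± 0.22 (adjusted p = 0.0223), and -0.58 (adjusted p = 0.0492) with the trend removed. Ndufa1 was lost without R6/2 PLX3397 replicate 2 (0.0596) or wild-type vehicle replicate 1 (0.0565) or 2 (0.0573). Of 49 cytosolic ribosomal protein genes, 47 were also below 0, but 2 were called, Rpl22 and Rplp0 (4.08%, against 7.71% of all genes called negative). The median of the 49 was -0.71, and -0.24 with the trend removed. Without wild-type PLX3397 replicate 1, 17 of them were called negative and 1 positive. With array weights these counts were 22 and 1.

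The count of respiratory genes called moved with single libraries. It was 2 without R6/2 PLX3397 replicate 1, 1 without replicate 2, 3 without R6/2 vehicle replicate 1, and 5 without R6/2 vehicle replicate 2. It was 30 without wild-type PLX3397 replicate 1 and 6 without replicate 2 or without replicate 3. Without wild-type vehicle libraries it was 1 without replicate 1, 2 without replicate 2 and 8 without replicate 3. The median stayed between -0.79 and -0.50 in these 12 fits, and no member was called positive in any.

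Genes for histone and DNA modifying enzymes leaned the other way and have long transcripts, with a median of 7940 bases. Of 45, 13 had a positive interaction (28.9%, against 9.29% of all genes) and 2 a negative one (Kat2a and Hdac5), with a median of 0.45. In wild type 13 were called lower and 1 higher (against 8.30% and 5.93% of all genes), and in R6/2 none was called (against 1.10%). Kmt2c, a histone H3 methyltransferase, stood at 7.46, 7.67 and 7.25 log2 CPM in the 3 R6/2 PLX3397 libraries, and at 6.27, 6.97 and 7.08 in R6/2 vehicle libraries. In wild-type striatum the values were 5.38, 5.57 and 5.94 on PLX3397 and 7.23, 7.26 and 6.77 on vehicle. The groups did not overlap in either genotype, and the interaction was 2.14 ± 0.33 (adjusted p = 0.0139), and 0.91 (adjusted p = 0.0472) with the trend removed. Tet1, which oxidises methylated cytosine, had 2.20 ± 0.40 (adjusted p = 0.0141), and Kdm5a, a histone demethylase, 1.55 ± 0.30 (adjusted p = 0.0146). Those 2 were 0.60 and 0.06 with the trend removed (adjusted p = 0.197 and 0.818), and over the 45 genes the median then was -0.06, with Kmt2c called positive and Hdac2 and Kdm5b negative. The positive count was 7 without R6/2 PLX3397 replicate 2, without wild-type vehicle replicate 1 and without wild-type vehicle replicate 2, and 20 without wild-type PLX3397 replicate 1. With the cortical covariate it was 6.

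The last lists are those of immune, vascular and astrocyte genes. Of 30 interferon-stimulated genes, Irf7 had a negative interaction and Ifit2 a positive one, a share of 6.67%, against 17.0% of all genes. Irf7, the transcription factor that amplifies interferon production, stood at 2.69, 3.04 and 3.07 log2 CPM in the 3 R6/2 PLX3397 libraries, and at 3.73, 3.30 and 3.35 in R6/2 vehicle libraries. The wild-type levels were 1.58, 1.82 and 1.41 on PLX3397 and 0.61, 1.26 and 0.85 on vehicle. The groups were apart in both genotypes, in opposite directions, and the interaction was -1.22 ± 0.32 (adjusted p = 0.0309). Ifit2, an interferon-induced RNA-binding protein, had 1.16 ± 0.34 (adjusted p = 0.0421). Removal of the trend ended both calls (adjusted p = 0.142 and 0.288), and so did the cortical covariate (0.0796 and 0.0841). Irf7 was lost without R6/2 PLX3397 replicate 1 or 2, R6/2 vehicle replicate 1, wild-type PLX3397 replicate 2 or wild-type vehicle replicate 1 (0.0543 to 0.0803). Ifit2 was lost without R6/2 PLX3397 replicate 1 or 2, any R6/2 vehicle library, wild-type PLX3397 replicate 2, or wild-type vehicle replicate 1 or 2 (0.0528 to 0.105). Of 24 genes of endothelium and mural cells 4 had a negative interaction (Egfl7, Vtn, Esam and Kcnj8; 16.7%, against 7.71% of all genes), with a median of -0.50. The count was 0 with the trend removed, with the cortical covariate, and without R6/2 PLX3397 replicate 1 or 2, R6/2 vehicle replicate 1, wild-type PLX3397 replicate 3, or wild-type vehicle replicate 1 or 2. It was 1 without R6/2 vehicle replicate 3 and 2 without R6/2 vehicle replicate 2 or wild-type PLX3397 replicate 1 or 2. None of 15 genes of antigen presentation was called (against 17.0% of all genes). Of 21 astrocyte genes, 3 were positive (Slc4a4, Aqp4 and Gja1; 14.3%, against 9.29% of all genes) and 2 negative (Id3 and Clu; 9.52%, against 7.71%), and none was called with the trend removed or with the cortical covariate. At most 3 astrocyte genes were called without any 1 library other than R6/2 PLX3397 replicate 3 or wild-type PLX3397 replicate 1. Slc4a4, the bicarbonate transporter of astrocytes, had 1.66 ± 0.33 (adjusted p = 0.0156), and 0.69 (adjusted p = 0.104) with the trend removed.

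**Figure D5:**
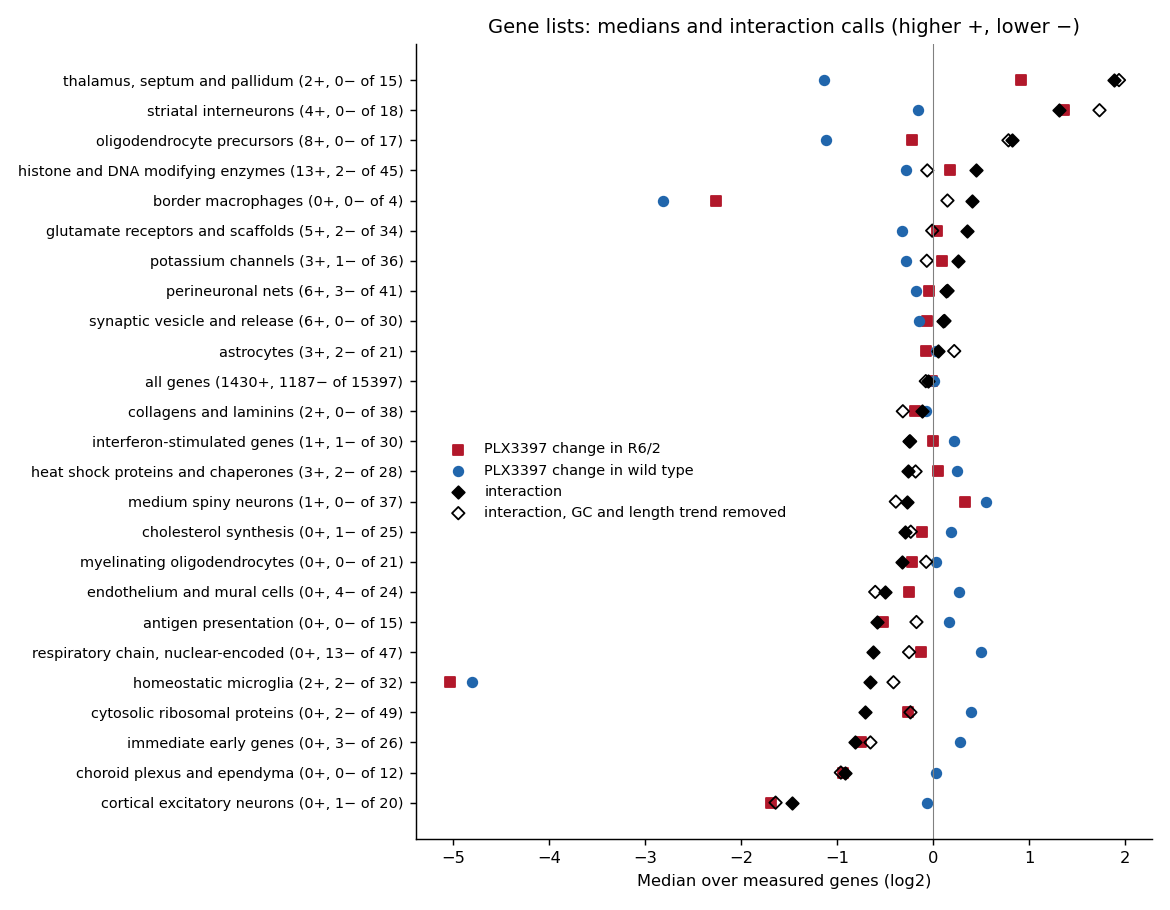
Median over the measured genes of each list of the PLX3397 change in R6/2 (squares) and wild type (circles) and of the interaction, as deposited (filled diamonds) and after removal of the GC and length trend (open diamonds), in log2 units, ordered by the interaction; counts of positive (+) and negative (−) calls stand beside each name. Homeostatic microglia have the largest falls in both genotypes, and cortical genes have the lowest interaction, -1.47.

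Single libraries moved the count of called genes over the whole table. It was 862 without R6/2 PLX3397 replicate 1, 683 without R6/2 PLX3397 replicate 2, 1158 without R6/2 vehicle replicate 1, 1668 without R6/2 vehicle replicate 2, 537 without wild-type vehicle replicate 1 and 625 without wild-type vehicle replicate 2. Without R6/2 PLX3397 replicates 1 and 2 together, which leaves 1 library in that group, limma called 0 genes, and 2599 had an unadjusted p under 0.05. In all 12 fits that leave out 1 library, 489 genes (18.7% of the 2617) kept their call and sign, 329 positive and 160 negative. Drug changes had opposite signs in the 2 genotypes for 486 of them, which selection on the interaction favours. Of the 489 genes, 121 were also called with the GC and length trend removed, 85 positive and 36 negative. They include Minar1, Peg3, Trpc5, N4bp2, Sema6d, Ptprz1, Sox6 and Kmt2c with positive and Ubald1, Hras and Lin7b with negative interactions.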

How the data were processed

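Per the submitters' processing notes, STAR, featureCounts, edgeR and limma were used with build mm10, and no versions are given. The table is named RPKM, but the values the authors deposited are log2 CPM: whole reads were recovered from 100% of them (tolerance 0.1 read, prior of 2 reads on average), and the lowest was -3.46 in all libraries. They were used as deposited. A planned pseudocount of 0.1 was not needed, and the planned filter of 1 CPM in 3 libraries removed no gene. Of 15397 NCBI gene IDs, 15078 matched RefSeq and 14305 (92.9%) had GC content and length in GENCODE M21 (longest transcript). Group means of all 12 libraries were fitted with limma 3.58.1 (R 4.3.3) with an intensity trend and two-sided moderated tests, with a threshold of 0.05 on the Benjamini-Hochberg adjusted p. The GC and length trend was removed from each library's deviations with splines of 5 df each. The fit was tested on simulated data with independent noise for each gene and library. These held no GC, length or regional differences between libraries, so the test cannot tell how such differences affect the calls. Python 3.11.15, numpy 2.4.6, pandas 2.3.3 and matplotlib 3.10.9 made the tables and plots.

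Named genes are a part of the 12 smallest p of each sign (mean of at least 1 CPM, predicted genes left out), up to 3 smallest p of each of 24 lists and 22 fixed genes. The rule, members and lists were chosen with earlier results of these data known. Labels do not say whether mice shared litters, so p-values measure the spread between these libraries. Replicates correlated at r = 0.938 to 0.986.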

Additional observations from a re-analysis of the deposited data

Results flagged for a closer look

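These are the genes named above whose drug change differed between R6/2 and wild type by the limma test of the interaction itself (adjusted p under 0.05, n = 3 mice per group). For each, the log2 interaction is given. Interactions were positive for Minar1 4.11, Trpc5 4.44, N4bp2 4.10, Peg3 3.44, Sema6d 1.35, Enah 1.66, Ptprz1 2.23, Tgfbr1 1.12, Sox6 2.03, Lhfpl3 2.90, Gpr17 0.89, Pdgfra 1.24, Tnr 2.55, Vcan 2.30, Hapln1 1.50, Col25a1 1.97, Isl1 1.39, Lhx8 4.09, Gbx1 4.53, Slc5a7 3.92, Gad2 2.86, Rora 4.09, Gbx2 3.21, Trh 5.19, Ifit2 1.16, Kmt2c 2.14, Tet1 2.20, Kdm5a 1.55, Gria4 2.05, Slc4a4 1.66 and Dock2 1.94. Negative interactions were found for Nat14 -1.25, Ubald1 -1.30, Hras -1.24, Lin7b -1.51, Tmem119 -1.18, Irf8 -2.28, Il34 -1.12, Chpf -0.84, Nptx2 -2.13, Irf7 -1.22, Cox6a1 -1.16, Ndufa1 -0.93, Grik5 -1.01 and Nckap1l -2.09. No cause of these differences was tested.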

How the results depend on the processing

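The count of called interactions (2617) stayed within 1.5 times under a rescaling by median of ratios, filters of 1 or 10 CPM, 1 CPM added, limma-voom on recovered reads, no intensity trend, and without R6/2 vehicle replicate 1 and wild-type PLX3397 replicate 1 together. It was 567 with the GC and length trend removed, 366 with a cortical covariate, 6588 with array weights, 0 without R6/2 PLX3397 replicates 1 and 2 together, and 537 to 3532 over fits without 1 library. The drug count in R6/2 (169) was 33 at 10 CPM, 101 with the cortical covariate, 930 with array weights, 58 without R6/2 PLX3397 replicates 1 and 2 together, and 125 to 381 without 1 library. In wild type (2191) it was 1150 with the trend removed, 7510 with array weights, 1317 without R6/2 PLX3397 replicates 1 and 2 together, 3560 without R6/2 vehicle replicate 1 and wild-type PLX3397 replicate 1, and 228 to 2716 without 1 library. With the replicate number as a block the counts were 1432 for the interaction, 144 in R6/2 and 1110 in wild type. With the block and the trend removed they were 0 (limma; 2882 at an unadjusted p under 0.05), 141 and 643. Same-numbered libraries mostly did not deviate together (r = -0.321 to 0.396 over 18 pairs, 3 over 0.1, 1 of 12 libraries closest to its own number). With 3 replicates per group these correlations cannot show that the number marks no litter or batch. The main fit used no block because the labels do not say that the number marks a shared litter or batch. The filter of 10 CPM was added after seeing the data; the causes were not tested.

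Of 45 named called genes, 25 lost their call with the trend removed, 28 with the cortical covariate, 7 with the block, and all 45 both with block and trend removal and without R6/2 PLX3397 replicates 1 and 2. The sign of Tgfbr1 turned, to -0.09, with the trend removed, also with the block. Among genes not called, Csf1r was 0.36 with array weights and 0.50 without R6/2 PLX3397 replicates 1 and 2, where Cx3cr1 was 0.57 and Pdyn -0.07. Penk was 0.25 with the trend removed, with or without the block. Without 1 library Penk ranged over -0.59 to 0.10 and Drd1 over -0.78 to 0.25. Depth limits genes near or below 0 log2 CPM, such as Csf1r on PLX3397, Irf8 in R6/2 on PLX3397 and Dock2 in wild type on PLX3397.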

Other observations

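Genes of the X chromosome were called positive more often than others from the deposited values. Of 526 measured X-linked genes, 108 had a positive interaction (20.5%) and 11 a negative one, against 9.29% positive over all genes. With the GC and length trend removed, 20 of 493 were positive (4.06%), against 0.965% over all genes. Median transcript GC of the X-linked genes was 45.6%, against 49.9% over all genes. This set was picked after its values were seen and carries no test. Trpc5, described above, is one of these genes. All 12 libraries held RNA of the 4 measured Y-linked genes, at 2.06 to 7.20 log2 CPM.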
